A study of Mus musculus with 6 samples.

Results

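CTCF regions at ribosomal protein genes were taken as the regions of the joined peak table that overlapped a ribosomal protein gene or lay within 3000 bp of it in mouse embryonic stem cells (ESCs). Genes were chosen by name alone, as protein-coding genes whose symbol is Rpl or Rps followed by a digit, with Rplp0, Rplp1, Rplp2 and Rpsa, and without the Rps6k kinases. This gave 138 genes, 90 with a large-subunit and 48 with a small-subunit name. In all, 164 of the 57662 regions of the table lay at 80 of these genes, and 3 of the 164 lay at a pair of them. The symbols also took in 53 genes with "-ps" in the symbol, which are annotated as protein-coding but carry a pseudogene name, and a few relatives such as Rpl3l, the muscle paralog of Rpl3, and Rps19bp1, a binding partner of Rps19 that is not a ribosomal subunit.

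Ribosomal proteins are built with ribosomal RNA into a small subunit, which reads the mRNA, and a large subunit, which forms the peptide bond. Their genes are short, active in nearly every cell, and many have processed pseudogene copies elsewhere in the genome. CTCF, a protein with a row of zinc fingers, reads a long, oriented DNA motif, stops cohesin and anchors chromatin loops, and it also sits near many promoters.

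The 4 libraries were CTCF chromatin immunoprecipitations (ChIP-seq) from 2 WT_CTCF and 2 MUT_CTCF samples. In both groups the endogenous CTCF carried an auxin-inducible degron and had been degraded with auxin, and the cells lived on an introduced CTCF, wild type in WT_CTCF and mutated at T668 in MUT_CTCF, with alanine in place of the threonine that carries O-GlcNAc, a single sugar added to serine and threonine. Clones were picked for a CTCF level near that of the endogenous protein, so genotype and clone cannot be told apart in these libraries. The study's methods call the replicates of each cell line biological, but neither they nor the labels say how they were separated, and p-values measure only the spread between these samples. The peak lists hold no reads, so neither the mutation nor the ESC identity could be checked in them, and the sequencing depth is unknown. The lists held 49987 and 54001 peaks in WT_CTCF and 33939 and 32712 in MUT_CTCF.

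The sites below are picked examples from CTCF regions at these genes in the mouse genome (mm9). Capitals mark the 13 bases closest to the CTCF core motif, on the strand of the motif and from 5′ to 3′, with 8 bases of context on either side. The first 5 match the motif, with at most 1 mismatch, and lie in regions that had a peak in all 4 libraries.
Rplp0 start, chr5:116009291-116009319, plus strand, 0 mismatches: gctccgacCCAGCAGAGGGCAgcaggtct
Rpl22 untranslated exon, chr4:151707213-151707241, plus strand, 0 mismatches: tctagcctCCAGCAGAGGGCGagggagac
Rps19bp1 coding exon, chr15:80091300-80091328, minus strand, 0 mismatches: acgagcgaCCAGCAGGTGGCAgtgcaaaa
Rpl38 start, chr11:114529764-114529792, plus strand, 1 mismatch: aatctgaaCCAGAAGAGGGCAgggctgct
Rpl5 start, chr5:108329476-108329504, plus strand, 1 mismatch: tcctcctaCCGGCAGGGGGCGatagcccg
The last 4 are the closest stretches in start regions that scored far lower in MUT_CTCF than in WT_CTCF or had no MUT_CTCF peak. They have 2 or 3 mismatches and do not count as a motif match here. Starts with the other pairing are not shown. That of Rpl37 had a match with 1 mismatch and no MUT_CTCF peak, and that of Rps14 had 3 mismatches and a peak in all 4 libraries.
Rps26 start, chr10:128063875-128063903, minus strand, 3 mismatches: gtcctcccACACTAGGGAGTGtgcgtccg
Rpl32 start, chr6:115759073-115759101, minus strand, 3 mismatches: cctcccagCCTCAAGGAGGCAccctcggg
Rpl26 start, chr11:68714959-68714987, plus strand, 2 mismatches: cctccgagCCGCTAGATGTCGctaaactc
Rpl10a start, chr17:28465182-28465210, plus strand, 3 mismatches: acaatgcaCGGCTAGAGGGGGcggctgcc

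To learn how CTCF regions are spread over these genes, regions were counted per gene and per length of sequence. Of the 85 genes without "-ps" in the symbol, 68 (80.0%) had a region, against 12 of the 53 with "-ps" (22.6%) and 60.4% of all 22380 protein-coding genes. The ribosomal protein genes held 13.3 regions per 100 kb of gene and flank. This was above the 6.96 at mitochondrial ribosomal protein genes, the 6.83 at genes of translation factors and other mRNAs with a terminal oligopyrimidine (TOP) start, the 6.49 at ribosome assembly genes and the 2.92 at all protein-coding genes. Gene length differed with it, with a median of 2080 bp at the ribosomal protein genes and 15420 bp at all protein-coding genes. Counted over the same 3000 bp on either side of every gene start, there were 0.703 regions per ribosomal protein gene, 0.977 per gene without "-ps" and 0.349 per protein-coding gene. Ribosome assembly genes had 0.615, mitochondrial ribosomal protein genes 0.533 and the translation and TOP genes 0.364. For regions called in all 4 libraries there were 0.346 per ribosome assembly gene, 0.326 per ribosomal protein gene and 0.171 per protein-coding gene. Ribosomal protein genes without "-ps" had 0.459 and those with "-ps" 0.113. These differences were not tested. The part of gene activity and open chromatin in this count was not tested. Genes without any region included Rps6, a phosphorylation target of the S6 kinases, Rplp2, which forms the lateral stalk with Rplp0 and Rplp1, and Rpl7, Rpl9, Rpl15, Rps7, Rps18, Rps21, Rps24 and Rps25.

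Of the 164 regions, 42 touched the 500 bp around a gene start, 35 lay elsewhere in a gene body, 30 lay upstream and 57 downstream. The mean summit of 38 of the 42 start regions lay upstream of the start, at a median of 144.5 bp. Within the genes themselves, 26 regions overlapped a coding exon, 26 an untranslated exon without coding sequence and 9 only an intron. A promoter, taken as the 3000 bp before a gene start, was touched by 72 regions (43.9%). The body or promoter of another protein-coding gene was touched by 55 regions, so these also belong to neighbours such as Flt3l next to Rpl13a.

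The regions ranged from very weak to very strong. The authors' mean, the read count of a region after spike-in scaling averaged over the 4 libraries, had a median of 84.0, against 95.2 for all regions. Of the 164, 63 (38.4%) lay in the lowest 25% of all regions of the series, 45 (27.4%) in the highest 25% and 26 (15.9%) in the highest 10%. The strongest was at Rpl22, a large-subunit protein, with an authors' mean of 1395 and an untranslated exon at chr4:151706787-151707967. Other strong regions were the starts of Rplp0 (1122), Rps29 (1014) and Rpl38 (988.5), and the body of Rpl19 (871). A motif match was present in 35 of the 45 regions of the highest 25% and in 16 of the 63 of the lowest 25%.

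The CTCF core motif, searched on both strands with at most 1 mismatch, was found in 76 of the 164 regions (46.3%), against 60.6% of all regions. In flanks of equal width 5000 bp away, 7.01% held a match at the ribosomal protein genes and 4.44% in the whole series. Of the 76 matches, 61 lay within 50 bp of the mean summit, and the median distance was 12 bp. An identical match with identical bases on either side recurred at Rpl8, Rpl13, Rpl24 and Rpl32 and is not among the sites shown. Repeat families were not annotated here. Regions at gene starts held a match in 17 of 42 cases (40.5%), close to the 39.8% of start regions of all protein-coding genes, while downstream regions did in 22 of 57 (38.6%, against 64%). The start regions had a median G+C content of 52.3% and a CpG ratio, observed over expected, of 0.718, against 53.5% and 0.573 at all gene starts. Shorter promoter motifs were searched on both strands. GGGCGG, the GC box, occurred in 19 of the 42 start regions (45.2%, against 46.1% of all start regions), CCGGAAGT, an ETS motif, in 4 (9.52%, against 5.42%), and AAGATGGC, a YY1 motif, in 3 (7.14%, against 5.49%). None of these counts was tested.

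Because the genes have many copies, the regions were checked for sequence that occurs elsewhere in the genome. On average 86.6% of the 31-base words of a region were unique, against 89.6% for all regions. The median word had more than 1 copy in 7 regions (4.27%, against 6.26% of all regions). The authors removed reads with several alignments, so a region in such sequence can be missed. These 7 included weak regions at Rpl17, Rpl23a, Rpl27 and Rpl7l1, with scores from 21 to 38, each called in a single WT_CTCF library. Those at Rpl23a and Rpl7l1 lay outside the gene, with a median of 26 and 127 copies per word. Whether the copied sequence came from the genes was not tested.

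The peaks at the ribosomal protein genes were then compared between genotypes. WT_CTCF replicates 1 and 2 had 129 and 151 peaks at the genes, and MUT_CTCF replicates 1 and 2 had 76 and 74. The groups did not overlap, with means of 140.0 ± 15.6 and 75 ± 1.41 peaks (SD, n = 2), but 2 against 2 samples cannot go below p = 0.333, which the exact two-sided permutation test gave. Peaks at these genes made up 0.258% and 0.280% of all peaks in WT_CTCF and 0.224% and 0.226% in MUT_CTCF (exact permutation p = 0.333, n = 2). At least 1 peak was present at 73 and 79 of the genes in WT_CTCF and at 55 and 54 in MUT_CTCF.

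Of the 164 regions, 69 (42.1%) had a peak in all 4 libraries, below the 52.6% of the whole series. A further 31 regions (18.9%, background 19.5%) had a peak in each WT_CTCF library and none in MUT_CTCF. The opposite pattern, with peaks in each MUT_CTCF library and none in WT_CTCF, was not seen (0 regions, background 0.033%), and no region lacked a peak in WT_CTCF altogether (background 0.316%). The excess lay in the 52 regions (31.7%, background 18.8%) called in a single WT_CTCF library and nowhere else. They were weak, with a median score of 37.0 and a highest score of 138, and 37 of them came from WT_CTCF replicate 2, which also gave 68.1% of such regions in the series. Without WT_CTCF replicate 1, 68 instead of 31 regions were called in WT_CTCF and not in MUT_CTCF. Among regions with a motif match, 60.5% were called in all 4 libraries, as were 61.0% in the series. Among those without a match it was 26.1%, against 39.6%.

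**Figure D1:**
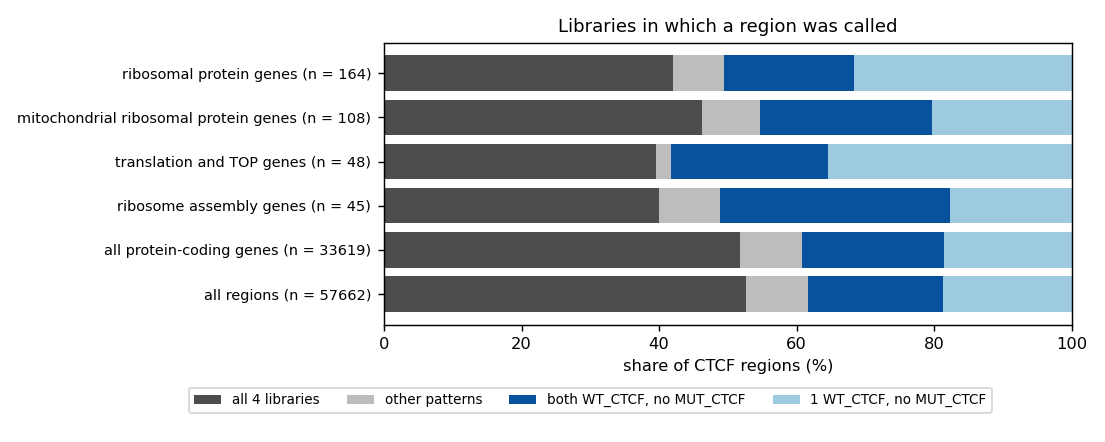
Share of CTCF regions (x axis, %) by the libraries in which a peak was called, for regions within 3000 bp of the genes of 5 gene lists and for all regions. At the ribosomal protein genes 42.1% were called in all 4 libraries and 31.7% in a single WT_CTCF library, against 52.6% and 18.8% of all regions.

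Of the regions without a MUT_CTCF peak, the 2 with the highest WT_CTCF scores lay at gene starts. For Rpl10a, a large-subunit protein, the WT_CTCF scores at the start were 463 and 365 (chr17:28465179-28465548, authors' mean 230.5). For Rps20, a small-subunit protein, the start had 336 and 409 (chr4:3762769-3763153, authors' mean 161). Both starts lacked a motif match. The start of Rpl37 scored 132 and 227, with a higher authors' mean of 253.5, and had a match with 1 mismatch, and a region before Rpl29-ps2 scored 163 and 217 with an exact match. Upstream of Rpl13 the scores were 186 and 163, and in an intron of Rpl13a they were 125 in both libraries. The median of the mean WT_CTCF score over the 31 regions was 79.0, against 704 for the 69 regions called in all 4 libraries.

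In the 69 regions called in all 4 libraries, peak scores were compared on the log2 scale with limma. The score is the integer that the peak caller gave to the highest peak of a library in the region. Its definition is not given in the sources used here, and a difference in score cannot be read as a difference in the amount of CTCF bound. From its spike-in normalized ChIP-seq, the study itself reported a global increase of CTCF binding in MUT_CTCF. It also reported more chromatin-bound CTCF by immunoblot, greater accessibility at the enhanced peaks, and matching results in additional clones. The median score of these regions was 695 and 723 in WT_CTCF and 272 and 226 in MUT_CTCF. In each of the 69 regions both MUT_CTCF scores lay below both WT_CTCF scores, as in 96.2% of all regions. At a limma adjusted p under 0.05, the score was lower in 66 of the 69 regions (background 90.4%) and higher in 0 (0 also at an unadjusted p under 0.05, background 0.0627%). Fewer regions passed without WT_CTCF replicate 1 or without WT_CTCF replicate 2, with a median change of -1.47 and -1.34 (log2). With all 4 libraries the median change was -1.43 (log2), a 2.69-fold lower score, with a range from -3.45 to -0.28. The median over all 30317 regions was -1.18, a 2.27-fold lower score.

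Since scores were lower nearly everywhere, each library was also centred on its own median, which gives the change relative to the bulk of regions. On that scale the 69 regions had a median of -0.22, against 0.03 for all regions, and 40 of the 69 lay below 0 (58.0%, against 47.2%). In this fit, 5 regions were lower (background 3.22%) and 1 was higher (background 1.95%), with 16 and 6 at an unadjusted p under 0.05. Without WT_CTCF replicate 1 or replicate 2 there were 0 of either kind, with 9 lower and 2 higher, or 11 lower and 4 higher, at an unadjusted p under 0.05. Without MUT_CTCF replicate 2 there were 3 lower regions. Without either MUT_CTCF replicate none was higher, with 5 at an unadjusted p under 0.05 in both cases.

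**Figure D2:**
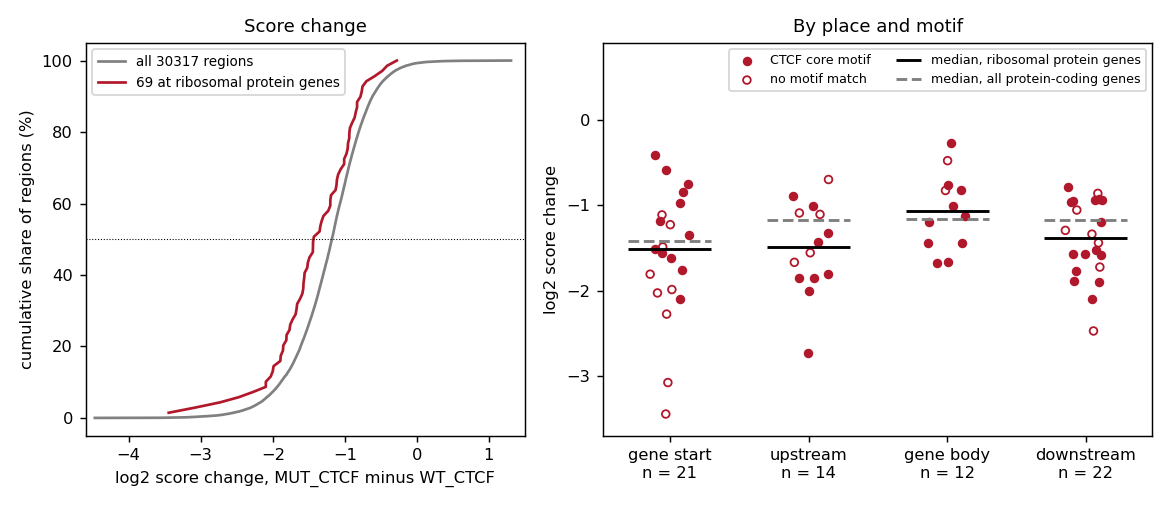
Left, cumulative share of regions (y axis, %) against the log2 score change, MUT_CTCF minus WT_CTCF (x axis), for the 69 regions at ribosomal protein genes and all 30317 regions called in all 4 libraries, with medians of -1.43 and -1.18. Right, the change of each of the 69 regions (y axis, log2) by its place at the gene (x axis), with a motif match as a filled point and without as an open point, and lines for the medians of ribosomal protein and all protein-coding genes. The 2 lowest points are start regions without a match, at Rps26 (-3.45) and Rpl32 (-3.08).

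The 2 largest falls were at gene starts. At the start of Rps26, a small-subunit protein near the mRNA exit channel (chr10:128063619-128064279), the scores were 487 and 456 in WT_CTCF and 48 and 39 in MUT_CTCF. This was a 10.9-fold fall, of -3.45 ± 0.20 (log2, SE, limma adjusted p = 0.00151), and of -2.23 relative to all regions (adjusted p = 0.0228). The start of Rpl32, a large-subunit protein (chr6:115758795-115759400), scored 410 and 498 against 61 and 47, a fall of -3.08 ± 0.22 (adjusted p = 0.00151) and of -1.87 relative to all regions (adjusted p = 0.0228). The groups were far apart at both starts, and both lacked a motif match.

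The start of Rpl26, a large-subunit protein that also binds p53 mRNA (chr11:68714676-68715186), had high scores in WT_CTCF and lower ones in MUT_CTCF. Its scores were 2250 and 2563 in WT_CTCF and 555 and 443 in MUT_CTCF, a change of -2.28 ± 0.21 (limma adjusted p = 0.00151) and of -1.06 relative to all regions (adjusted p = 0.0382). Downstream of Rpl13 (chr8:125630308-125630936) the scores were 695 and 811 against 176 and 175, a change of -2.10 ± 0.19 and of -0.89 relative to all regions (adjusted p = 0.0473). The start of Rpl21-ps11 was the fifth region that was lower relative to all regions, with scores of 960 and 961 against 238 and 212 and a relative change of -0.88 (adjusted p = 0.0482). In contrast to the others, the regions at Rpl13 and Rpl21-ps11 had a motif match with 1 mismatch. At Rpl13 the match lay 328 bp from the mean summit. Without either MUT_CTCF replicate the relative calls at Rpl13 and Rpl21-ps11 were lost, and that at Rpl26 was lost without replicate 2. Every relative call, also those at Rps26 and Rpl32, was lost without either WT_CTCF replicate. With the replicate number added to the fit, the relative calls at Rpl13 and Rpl21-ps11 were lost as well. In 2 other regions the scores fell steeply, but the MUT_CTCF replicates lay apart. Upstream of Rpl3l the scores were 302 and 378 against 86 and 30, a change of -2.73 ± 0.49 (adjusted p = 0.00343) and of -1.52 relative to all regions (adjusted p = 0.0876). Downstream of Rps10 they were 273 and 344 against 29 and 105, a change of -2.47 ± 0.58 (adjusted p = 0.0082) and of -1.26 relative to all regions (adjusted p = 0.204).

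At the other end, 3 regions did not pass the test for a lower score. A coding exon of Rps19bp1 (chr15:80090983-80091708) scored 767 and 823 in WT_CTCF and 705 and 609 in MUT_CTCF, a change of -0.28 ± 0.19 (limma adjusted p = 0.202). Relative to all regions this was 0.93 (adjusted p = 0.0437), and it was the single region above the rest; the call was lost on leaving out any of the 4 libraries. The start of Rplp0, the core protein of the ribosomal stalk (chr5:116008933-116009594), scored 3115 and 3005 against 2525 and 2094, a change of -0.41 ± 0.19 (adjusted p = 0.0854), or 0.80 relative to all regions (adjusted p = 0.0631). An intron of Rpl22 scored 253 and 305 against 212 and 187, a change of -0.48 ± 0.20 (adjusted p = 0.0602), or 0.73 relative to all regions (adjusted p = 0.0694). Of these 3 regions, those at Rps19bp1 and Rplp0 had an exact motif match.

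**Figure D3:**
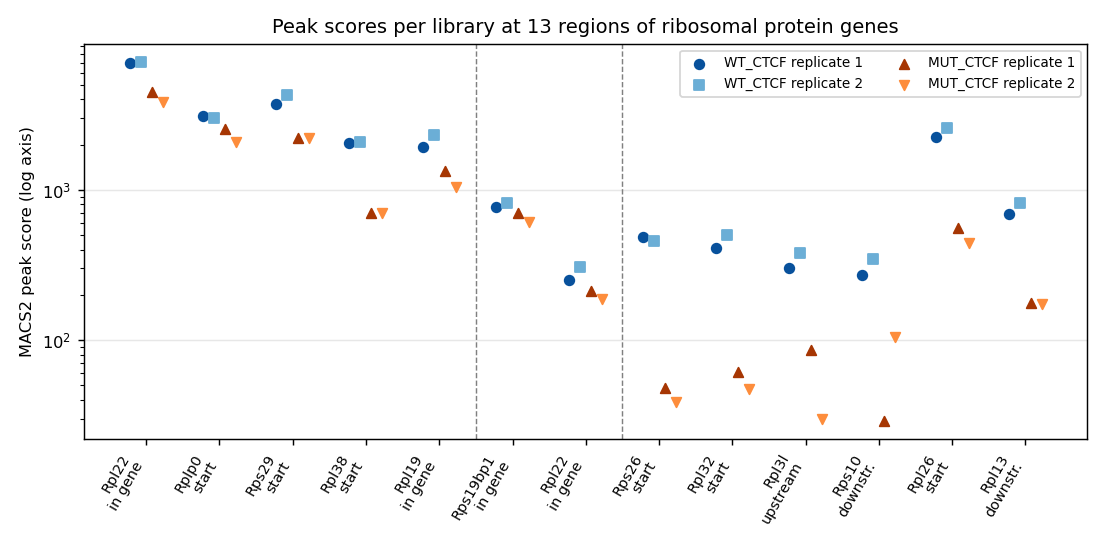
Peak score (y axis, log scale) in each of the 4 libraries at 13 regions: 5 with a high authors' mean (left), a coding exon of Rps19bp1 and an intron of Rpl22 with small changes (middle), and the 6 with the largest falls (right). At the start of Rps26 the score went from 487 and 456 in WT_CTCF to 48 and 39 in MUT_CTCF, and at the start of Rplp0 from 3115 and 3005 to 2525 and 2094.

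The 5 strong regions named above had lower scores in both MUT_CTCF libraries, and all but the start of Rplp0 passed the test. The untranslated exon of Rpl22 scored 7016 and 7093 in WT_CTCF and 4494 and 3832 in MUT_CTCF, a change of -0.77 ± 0.19 (limma adjusted p = 0.0101), and 0.45 above the bulk. The start of Rps29, a small-subunit protein, scored 3703 and 4291 against 2204 and 2223, a change of -0.85 ± 0.19 (adjusted p = 0.00679), and 0.36 above the bulk. The body of Rpl19 scored 1914 and 2307 against 1339 and 1044, a change of -0.83 ± 0.22 (adjusted p = 0.0129), and 0.38 above the bulk. With the mean score of several peaks in place of the highest, the change at Rpl19 was -0.35 (limma adjusted p = 0.283). At the start of Rpl38, a large-subunit protein needed for translation of Hox mRNAs, the scores were 2041 and 2093 against 699 and 699, a change of -1.56 ± 0.18 (adjusted p = 0.00162), and 0.35 below the bulk. None of these 4 passed relative to all regions, with adjusted p from 0.189 to 0.271.

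The change was then described by place and motif. Over the 21 start regions with a score in every library, the median was -1.51 (log2), against -1.43 for the 1254 start regions of all protein-coding genes. For upstream regions it was -1.49 against -1.17, for downstream regions -1.39 against -1.18, and for gene bodies -1.07 against -1.16. Start regions without a motif match had a median of -1.99 in 9 regions, against -1.45 in 542 at all protein-coding genes. With a match it was -1.27 in 12 regions, against -1.40 in 712. Besides Rps26, Rpl32 and Rpl26, the 9 included Rps3a, Rpl36a, Rpl27 and Rps14. Over all places, the median was -1.44 in the 23 regions without a match and -1.39 in the 46 with one. In the whole series it was -1.17 without and -1.18 with a match. The medians at the ribosomal protein genes describe few regions, and none of these medians was tested.

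The other gene lists stood closer to the series, with medians of -1.24 over 50 regions of mitochondrial ribosomal protein genes, -1.17 over 19 of the translation and TOP genes and -1.23 over 18 of the ribosome assembly genes. At a limma adjusted p under 0.05, the score was lower in 49, 17 and 16 of these, next to 90.4% of all regions. Genes with large-subunit and small-subunit names had 108 and 56 regions, of which 42.6% and 41.1% were called in all 4 libraries, with medians of -1.40 over 46 and -1.43 over 23 regions. A motif match was present in 51.9% and 35.7% of them. The regions at genes with "-ps" in the symbol had a median of -1.69 over 6 regions, and those at the other ribosomal protein genes -1.35 over 63.

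Several ribosomal proteins have known roles beyond the ribosome. Rpl5 and Rpl11 bind Mdm2 together with ribosomal RNA and thereby stabilise p53. At the start of Rpl5 (chr5:108329148-108329693) the scores were 946 and 1055 in WT_CTCF and 304 and 287 in MUT_CTCF, a change of -1.76 ± 0.18 (limma adjusted p = 0.00153) and of -0.55 relative to all regions (adjusted p = 0.12). The start of Rpl11 scored 723 and 685 against 349 and 272, a change of -1.19 ± 0.21 (adjusted p = 0.00322), with 0.02 relative to all regions (adjusted p = 0.961). Rps14 and Rps19 are known from inherited and acquired anaemias. The start of Rps14 scored 406 and 323 against 135 and 207, a change of -1.12 ± 0.27 (adjusted p = 0.00932), with 0.10 relative to all regions (adjusted p = 0.857). The start of Rps19 scored 244 and 233 in WT_CTCF and 58 in MUT_CTCF replicate 1, and had no peak in replicate 2. Rplp1 had no region at its start; downstream of it, the scores were 424 and 395 against 212 and 107 (-1.44 ± 0.34, adjusted p = 0.0084), and -0.23 relative to all regions. At Rpl10, needed for joining of the subunits, the start had a single peak, with a score of 37 in WT_CTCF replicate 1. The region nearest to the start of Rpsa, the laminin receptor protein, was an exon peak with a score of 32 in WT_CTCF replicate 2.

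In total, 9 genes had 4 or more regions, and in several of them strong and weak regions lay side by side. Rpl26 had 7. Its start and a coding exon (1075 and 1010 against 429 and 625) were strong, a region upstream was moderate (200 and 292 against 74 and 91), and the other 4 had scores from 28 to 68 in WT_CTCF alone. The exon region, whose motif match lay 2.0 bp from the mean summit, changed by -1.01 ± 0.24 (limma adjusted p = 0.00862), 0.20 above the bulk, next to the -2.28 of the start. Rpl7l1, a relative of Rpl7, had 6, of which the start (1198 and 1066 against 458 and 429) and an untranslated exon (637 and 620, with 175 in MUT_CTCF replicate 2 alone) were strong. The 6 at Rpl3, which lies at the peptidyl transferase centre, were led by a region downstream (487 and 504 against 358 and 187, -0.94 ± 0.33, adjusted p = 0.0333, 0.27 above the bulk). Its start held only weak peaks, with 47 in WT_CTCF replicate 1 and 62 in replicate 2 at different regions.

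Rpl13a also had 6 regions. Its start, which lies in a promoter of Flt3l, scored 751 and 955 against 395 and 223 (-1.51 ± 0.32, limma adjusted p = 0.00556, -0.30 relative to all regions). A coding exon scored 486 and 486 against 118 and 200 (-1.66 ± 0.28, adjusted p = 0.00308, -0.45 relative to all regions). Rpl13 had 5 regions, and the 2 strong ones lay downstream. Rpl23, Rpl23a, Rpl32 and Rps27a had 4 each. At Rpl23a the strong region lay downstream within Tlcd1 (1657 and 1883 against 503 and 685), whereas its own start scored 115 and 100 in WT_CTCF and had no MUT_CTCF peak. At Rps27a, which encodes a fusion of ubiquitin with a small-subunit protein, no score went above 79.

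**Figure D4:**
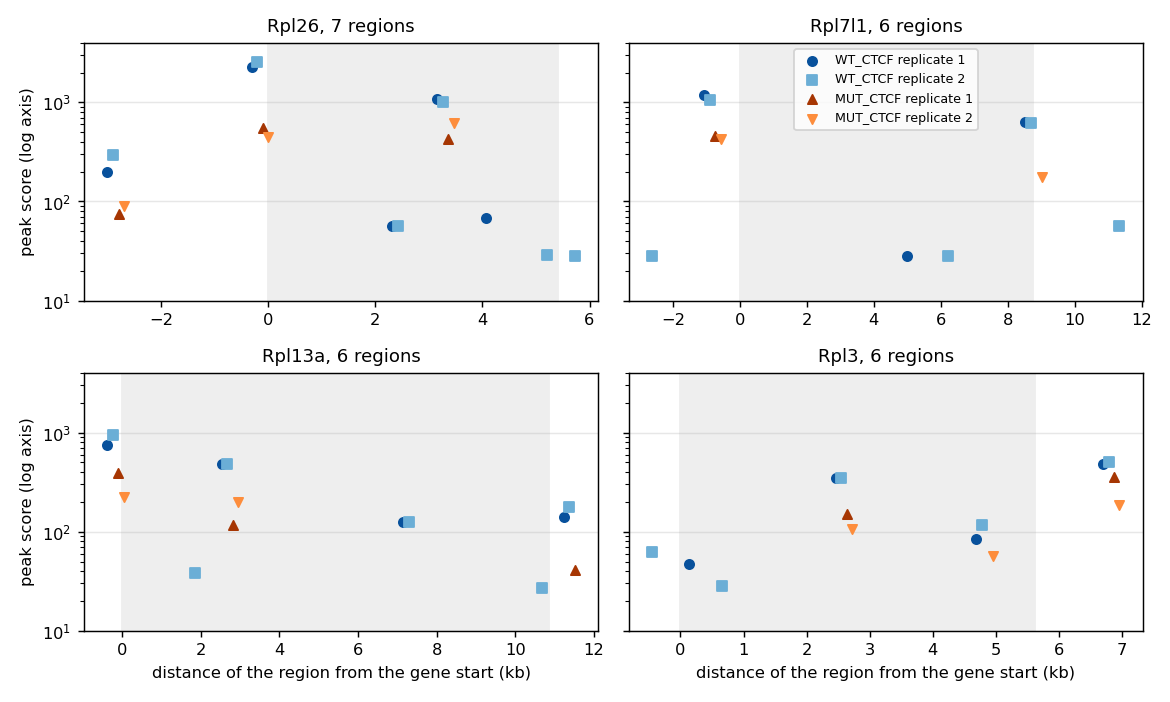
Peak score (y axis, log scale) of every region at Rpl26, Rpl7l1, Rpl13a and Rpl3 against the distance of the region from the gene start (x axis, kb, in the direction of transcription), in each of the 4 libraries, with the gene body shaded. A missing symbol means that the library had no peak; points of 1 region are set slightly apart. At Rpl26 the start scored 2250 and 2563 in WT_CTCF, while 4 other regions stayed between 28 and 68.

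In 16 genes, 2 or more regions were called in all 4 libraries. The change differed between regions of a gene by a median of 0.57 (log2) from the lowest to the highest. The widest gaps were at Rps10 (from -2.47 to -0.70), Rpl3l (from -2.73 to -1.09) and Rps19bp1 (from -1.67 to -0.28). At Rpl13a, Rpl13 and Rpl22 the gap was below 0.3. The difference between regions of a gene was not tested.

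Peaks were also narrower with the mutant. Over the 69 regions the median width was 660 and 618 bp in WT_CTCF and 401 and 425 bp in MUT_CTCF. At a limma adjusted p under 0.05, width was lower in 46 of the 69 regions (66.7%, background 44.6%) and larger in 0 (0 at an unadjusted p under 0.05, background 0.0198%). The median change was -0.65 (log2), against -0.46 for all regions, and -0.20 after centring, when 1 region passed. Without either WT_CTCF replicate the count was 0, with 43 and 37 at an unadjusted p under 0.05. The peaks downstream of Rps10 had widths of 889 and 1571 bp against 170 and 299 bp, and those at the start of Rps26 had 661 and 603 bp against 216 and 239 bp (limma adjusted p = 0.0101 and 0.008). Downstream regions were narrower in 18 of 22 cases, against 45.9% of downstream regions of all protein-coding genes. Start regions were narrower in 14 of 21, against 68.7%.

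The position of the peaks moved little. The summits of the genotypes lay a median of 9.0 bp apart, next to 7.0 bp between the WT_CTCF replicates and 6.0 bp between the MUT_CTCF replicates, and to 8.5 bp between genotypes over all regions. Only 2 of the 69 regions had summits more than 100 bp apart, at the start of Rpl11 (319.5 bp) and in the body of Rpl4 (409.5 bp). At Rpl11 the summits of the WT_CTCF replicates themselves lay 624 bp apart, more than the genotypes did, and those of the MUT_CTCF replicates 5 bp. At Rpl4 the replicates lay 63 bp apart in WT_CTCF and 2 bp in MUT_CTCF.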

How the data were processed

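CTCF ChIP-seq was done on 2 WT_CTCF and 2 MUT_CTCF samples. Per the study's methods and processing notes, reads were trimmed (Trim Galore 0.4.4) and aligned to mm9 with Bowtie2 2.3.4.1. Multiply aligned and duplicate reads were removed, and tracks were scaled by Drosophila spike-in factors. Peaks were called per library with MACS2 2.1.1.20160309, and the methods also apply the scale factors in peak calling. The deposited lists give each peak's position, summit and an integer score, whose definition is not given in the sources used here. The joined table deposited by the authors gives the mean signal of a region, the spike-in scaled read count averaged over the libraries; its fold changes and p-values, from the authors' DESeq2 comparison, were not used. Counts per library were not used here, and intervals from depth could not be given.

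Peaks were assigned to a region by an overlap of at least 1 bp. Log2 scores and log2 widths (summed over the peaks of a library) of the 30317 regions called in all 4 libraries were fitted with limma 3.58.1 (R 4.3.3, eBayes) with Benjamini-Hochberg adjustment over all of them, at a threshold of 0.05, and again after centring each library on its median. The fits were tested on simulated data. For numbers of peaks per library, an exact permutation test (two-sided) was used, and other counts were described beside all regions. Genes and exons came from GENCODE vM1, sequence from the mm9 genome. Regions were named by rule: the 6 with the highest authors' mean, the 6 largest and 4 smallest falls, the 6 highest WT_CTCF scores without a MUT_CTCF peak, genes with 4 or more regions, and 10 fixed genes; a few of these are not reported here. Members, lists and the rule were chosen with earlier results of these data known. The input samples were not analysed here.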

Additional observations from a re-analysis of the deposited data

How the results depend on the processing

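The number of regions and genes depended on the window. With the gene body alone there were 61 regions at 41 genes, with 1 kb on either side 102 regions, and with 10 kb 283 regions. A promoter window reaching 1000 bp to both sides gave a promoter share of 30.5%. The motif share was 9.15% with 0 mismatches and 69.5% with 2 mismatches (12.7% and 86.0% of all regions). Regions called in WT_CTCF and not in MUT_CTCF numbered 55 when a peak had to cover at least 50% of the region, 83 when 1 replicate sufficed, and from 36 to 68 on leaving out 1 replicate.

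Scaling changed the calls on scores. After centring, 5 instead of 66 regions had a lower score, 1 was higher and the median was -0.22, and with cyclic loess, added after seeing the data, 6 were lower with a median of -0.14. With regions at or above the median score 34 were lower (median -1.20), and in gene bodies 24 (median -1.23). Shares over all regions are not given for these settings, for cyclic loess or for the fits with 1 replicate left out. These counts can therefore not be set against the series. On leaving out 1 replicate the lower scores numbered from 0 to 61, the narrower peaks from 0 to 37, and the regions lower relative to all from 0 to 4, with 0 higher. The lone sample is then assumed to vary like the other group. Narrower peaks numbered 1 after centring (median -0.20) and 11 at an adjusted p below 0.01. Cyclic loess gave 0 regions higher relative to all.

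Relative to all regions, the changes at 10 named regions were above 0 after centring: 0.020 at Rpl11, 0.38 at Rpl19, 0.73 and 0.45 at Rpl22, 0.20 at Rpl26, 0.27 at Rpl3, 0.80 at Rplp0, 0.10 at Rps14, 0.93 at Rps19bp1 and 0.36 at Rps29. With cyclic loess they were 0.22 at Rpl19, 0.83 and 0.14 at Rpl22, 0.091 at Rpl26, 0.27 at Rpl3, 0.58 at Rplp0, 0.19 at Rps14, 0.82 at Rps19bp1 and 0.13 at Rps29. The cause was not tested.

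Samples with the same replicate number did not deviate together (r = -0.0033 for scores), so the numbers were not treated as pairs. With the replicate block 66 regions had a lower score and 45 a narrower peak; with the block on centred scores, added after seeing the data, 3 were lower and 0 higher. For peaks per library the block gave the same difference of -65.0 peaks (exact sign-flip p = 0.5). Depth is not known for these lists, and the score floor of the caller limits what could be called in the weaker regions.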
